A study of Sus scrofa with 8 samples.

Results

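Matrix metalloproteinases (MMPs) and the tissue inhibitors of metalloproteinases (TIMPs) were followed in RNA-seq libraries of condylar cartilage cells from the pig temporomandibular joint, the jaw joint. The set comprised 10 named genes, the 7 proteases MMP2, MMP3, MMP9, MMP13, MMP14, MMP16 and MMP19 and the 3 inhibitors TIMP1, TIMP2 and TIMP3, of 18898 genes in the deposited table. The symbol column of that table gave 9 of them, and TIMP2, whose row has no symbol, was found by its Entrez identifier. All 10 passed the filter on low counts.

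The osteoarthritis group held 4 libraries from animals labelled WT (wild type), in which a 5.0 mm hole had been punched through the articular disc and the excised piece removed. The control group held 4 libraries, also labelled WT. The surgical protocol is repeated on every sample, and the labels do not say whether control joints were operated on without a perforation. The labels call the libraries of each group biological replicates, without naming the animals. Age, sex, the time after surgery and whether each library came from a separate animal are therefore unknown here. The p-values cover the spread among libraries, which may be technical in part. The design asks which transcripts differ between the osteoarthritis model and the control.

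MMPs are zinc-dependent proteases that are made as inactive precursors and cut the proteins of the extracellular matrix. TIMPs bind the active site of these proteases and block them. In cartilage, collagenases such as MMP13 cut the triple helix of type II collagen, and gelatinases such as MMP2 and MMP9 degrade the unwound chains. MMP14, a membrane-anchored protease, activates the MMP2 precursor with TIMP2 as a bridge.

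Total estimated counts per library ran from 11354200 to 25412939 in osteoarthritis and from 13028760 to 19710638 in controls. Control replicates 1 and 3 stood apart from control replicates 2 and 4. Over log2 CPM (read counts per 1e6 counts of a library, after scaling), controls 1 and 3 had a Pearson r across genes of 0.974 with each other, against 0.836 to 0.848 with the other controls, and genes are not independent replicates. Their counts differed by more than sampling noise, with a chi-square per degree of freedom of 31.6, which does not show whether they came from separate animals. They entered as 2 samples, as the labels list them, and the fold changes of the 10 genes and most ratios are also given without them below. All 7 chondrocyte markers were detected in every library, with summed levels of 18100 to 128211 CPM in osteoarthritis and 6261 to 15155 CPM in controls. COL2A1 made up most of these sums, and SOX9, ACAN and MATN3 overlapped between groups. Markers of bone cells, macrophages and fibroblasts were detected as well, and in such bulk samples fewer cells of a type and less RNA per cell cannot be told apart.

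TIMP1 rose in the osteoarthritis libraries (edgeR adjusted p = 0.0497), the only gene of the 10 to pass the edgeR test. MMP13, MMP16 and TIMP1 each had their 4 osteoarthritis values above their 4 control values. The fold changes of all 10 were positive, at a median of 0.70 on the log2 scale, where 50.4% of the 16020 genes tested were positive and the median of all genes was 0.0049. A gene was called changed at an adjusted p under 0.05 by the quasi-likelihood test of edgeR, with adjustment over all genes tested. By that rule 1 of 10 was called higher, where 0.225% of all genes were, and 0 were called lower, where 0.393% were, or 0.618% in either direction. The groups lay apart with osteoarthritis higher in 3 of 10, where 5.69% of all genes did so. An unadjusted p under 0.05 was found for 4 of 10, all higher, where 7.52% of all genes were higher at that level. DESeq2 called 2 of 10, TIMP1 and MMP13, where it called 2.38% of all genes higher. Limma-voom called 1, against 0.243% of all genes, and limma-voom with sample weights called 5, against 12.3%. In either direction these tools called 5.22%, 0.743% and 20.8% of all genes, and edgeR put 15.2% at an unadjusted p under 0.05. The groups lay apart in either direction for 11.2% of all genes. Scaled by library size alone, all genes had a median of 0.65, and relative to that median the 10 stayed above 0, with MMP19 at 0.00092 and MMP13 at 2.94.

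**Figure D1:**
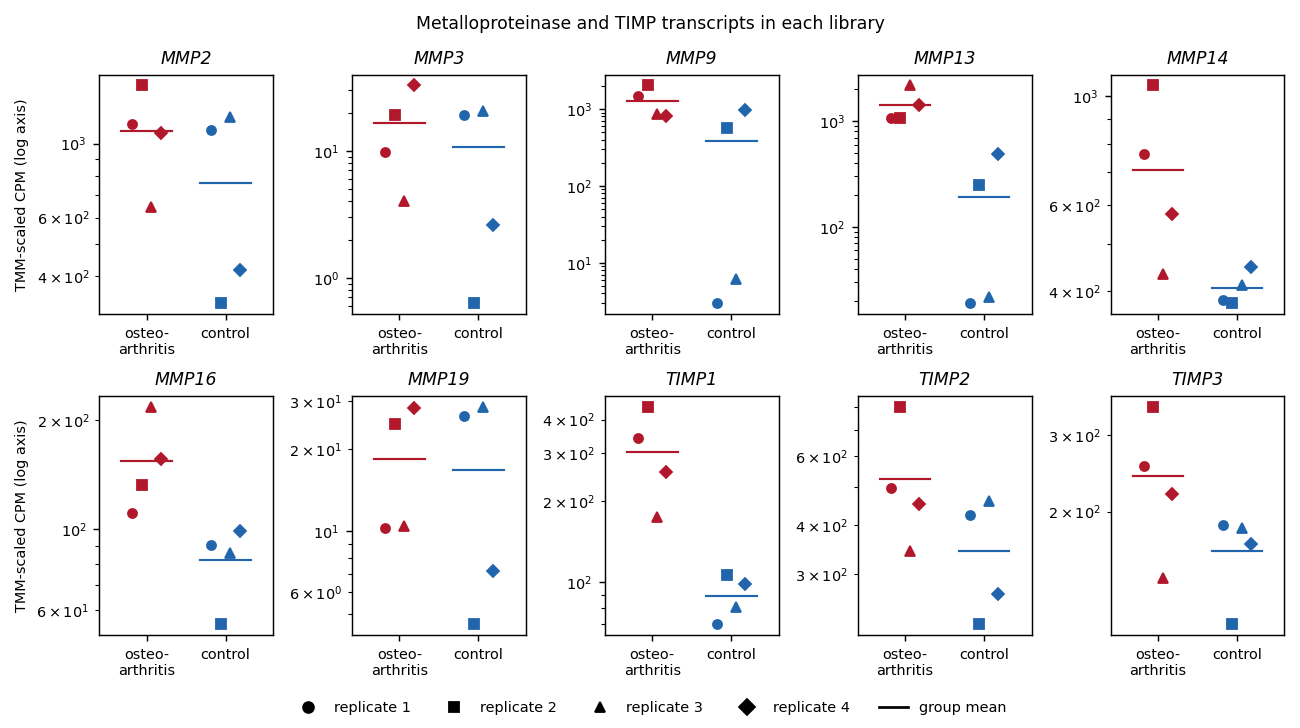
Levels of the 10 genes in TMM-scaled CPM (log axis with its own range in each panel) for the 4 osteoarthritis libraries on the left and the 4 control libraries on the right. Symbols mark replicates 1 to 4 and the lines mark group means. MMP13, MMP16 and TIMP1 show no overlap between groups, and MMP9 and MMP13 are lowest in controls 1 and 3.

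Levels between groups are given in CPM after trimmed-mean (TMM) scaling, and fold changes are log2 values of osteoarthritis over control followed by ± their standard error. TIMP1 (ENSSSCG00000012277; chromosome X, 42103251 to 42106289, RefSeq on Sscrofa11.1) encodes a secreted inhibitor of most MMPs. It was at 341, 447, 175 and 256 CPM in osteoarthritis replicates 1 to 4, and at 69.9, 107, 80.8 and 98.7 CPM in control replicates 1 to 4. The lowest osteoarthritis library, replicate 3, was above the highest control, replicate 2. The group means were 305 ± 117 CPM in osteoarthritis and 89.0 ± 16.8 CPM in controls (SD, n = 4 each). The fold change was 1.77 ± 0.32, and the edgeR adjusted p of 0.0497 lay just under the threshold. With a library left out in turn the call was kept without osteoarthritis replicate 3 (edgeR adjusted p = 0.033) and lost without any of the other 7, with edgeR adjusted p from 0.065 to 0.15. It was also lost with controls 1 and 3 summed into 1 sample (1.71, edgeR adjusted p = 0.15). Short non-coding RNA genes, a sign of library make-up, took 2.30 to 3.48% of counts in osteoarthritis libraries and 11.6 to 27.9% in controls, and the TMM factor was 1.04 to 1.55 in osteoarthritis and 0.424 to 1.04 in controls. The part of these differences in the fold changes of the 10 genes was not tested. TIMP1 lies inside the model of SYN1, a neuronal synapsin gene, and whether counting used the strand is not stated in the labels. SYN1 had 144 to 286 counts in osteoarthritis and 47 to 117 in controls, against 5286 to 9575 and 678 to 2014 for TIMP1.

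TIMP2 and TIMP3 were measured higher in osteoarthritis by less than TIMP1, and neither passed the test. TIMP2 (ENSSSCG00000017164; chromosome 12, 3254794 to 3300835), a secreted inhibitor that also takes part in MMP2 activation, was at 499, 803, 344 and 455 CPM in osteoarthritis replicates 1 to 4, and at 424, 224, 463 and 267 CPM in control replicates 1 to 4. Controls 1 and 3 lay inside the osteoarthritis range and controls 2 and 4 below it. The TIMP2 fold change was 0.61 ± 0.36 (edgeR adjusted p = 0.46). TIMP3 (ENSSSCG00000031866; chromosome 5, 12185816 to 12242599), which stays bound to the matrix and also inhibits aggrecan-cleaving ADAMTS proteases, was at 256, 350.1, 140.4 and 220.0 CPM in osteoarthritis replicates and at 186, 109.6, 183 and 168 CPM in controls. Osteoarthritis replicate 3 was below 3 of the 4 controls. TIMP3 had a fold change of 0.58 ± 0.31 (edgeR adjusted p = 0.42). Its model lies inside that of SYN3, which had 3 to 30 counts in osteoarthritis and 0 to 7 in controls. Other RefSeq models overlap those of TIMP2 (CEP295NL and TRNAE-UUC), MMP13 (LOC110255426) and MMP16 (LOC106510034). None of these was found among the counted genes by Entrez identifier, and their part in the counts was not tested.

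MMP13 (ENSSSCG00000014988; chromosome 9, 33549003 to 33616700), the collagenase of hypertrophic cartilage, had the largest edgeR fold change of the 10 with all libraries included, whereas limma-voom put MMP9 higher (4.55, against 4.01 for MMP13). It was at 1065, 1069, 2179 and 1426 CPM in osteoarthritis replicates 1 to 4, and at 19.0, 247, 21.7 and 485 CPM in control replicates 1 to 4. Every osteoarthritis library was above every control, and controls 1 and 3 were far below controls 2 and 4. The highest control was 25.6 times the lowest, while the highest osteoarthritis library was 2.05 times the lowest. The fold change was 2.89 ± 1.00 (edgeR adjusted p = 0.23; unadjusted p = 0.018), which did not pass over all genes.

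MMP9 (ENSSSCG00000007436; chromosome 17, 48179690 to 48186782), a gelatinase that osteoclasts and neutrophils make in quantity, varied more among the controls than any other of the 10. It was at 1462, 2025, 863 and 801 CPM in osteoarthritis replicates 1 to 4, and at 2.98, 558, 6.25 and 958 CPM in control replicates 1 to 4. Control replicate 4 was above osteoarthritis replicates 3 and 4, so the groups overlapped, while controls 1 and 3 were near the bottom of the scale. Those low values rested on 39 and 71 counts, against 3545 and 19547 in controls 2 and 4. From the highest to the lowest control MMP9 spanned 322-fold, against 2.53-fold in osteoarthritis. The fold change was 1.76 ± 1.41 (edgeR adjusted p = 0.60).

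MMP2 and MMP14, which act together at the cell surface, were abundant in every library. MMP2 (ENSSSCG00000002829; chromosome 6, 30059247 to 30087031), a gelatinase of connective tissue cells, was at 1146, 1493, 645 and 1075 CPM in osteoarthritis replicates and at 1101, 332, 1199 and 419 CPM in controls. Controls 1 and 3 were the high controls here, inside the osteoarthritis range. Its fold change was 0.51 ± 0.49 (edgeR adjusted p = 0.66). MMP14 (ENSSSCG00000002039; chromosome 7, 76174502 to 76185931) was at 764, 1053, 434 and 577 CPM in osteoarthritis replicates and at 384, 378, 413 and 449 CPM in controls. The controls agreed closely, the highest being 1.19 times the lowest, and osteoarthritis replicate 3 alone lay below a control, replicate 4. MMP14 had a fold change of 0.80 ± 0.31 (edgeR adjusted p = 0.28; unadjusted p = 0.031).

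MMP16 (ENSSSCG00000006132; chromosome 4, 48556826 to 48867959), another membrane-anchored protease, was at 111, 133, 219 and 156 CPM in osteoarthritis replicates 1 to 4, and at 90.3, 54.6, 86.3 and 98.9 CPM in control replicates 1 to 4. The groups did not overlap, and osteoarthritis replicate 3, the lowest of its group for TIMP1 and MMP14, was the highest for MMP16. The fold change was 0.90 ± 0.28 (edgeR adjusted p = 0.18; unadjusted p = 0.0091).

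MMP3 and MMP19 were the scarcest of the 10 and overlapped widely between groups. MMP3 (ENSSSCG00000014985; chromosome 9, 33446969 to 33453995), the stromelysin that cleaves proteoglycans and activates other MMPs, was at 9.84, 19.1, 3.99 and 32.7 CPM in osteoarthritis replicates and at 19.0, 0.630, 20.7 and 2.60 CPM in controls. The lowest control, replicate 2, held 4 counts. The deposited table names this row MMP3 and pairs it with the Entrez entry of MMP3, but a second reference table lists the same identifier as MMP1, so which of these neighbouring genes was counted is uncertain. Its fold change was 0.60 ± 0.93 (edgeR adjusted p = 0.80). MMP19 (ENSSSCG00000000368; chromosome 5, 21279514 to 21285943), a secreted protease of the same family, was at 10.3, 24.7, 10.5 and 28.3 CPM in osteoarthritis replicates and at 26.5, 4.57, 28.7 and 7.16 CPM in controls. In both genes controls 1 and 3 were the high controls, the reverse of MMP9 and MMP13. MMP19 had a fold change of 0.13 ± 0.61 (edgeR adjusted p = 0.94).

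The size of several of these differences depended on which controls entered. Without controls 1 and 3, MMP13 was at 2.01 on the log2 scale and MMP9 at 0.80, neither passing (edgeR adjusted p = 0.10 and 0.42), and TIMP1 was at 1.61 with its call lost (edgeR adjusted p = 0.10). Without controls 2 and 4, MMP9 was at 8.10 and MMP13 at 6.11, both called (edgeR adjusted p = 0.0037 and 0.0033), and TIMP1 kept its call at 1.98 (edgeR adjusted p = 0.030). MMP14 was at 0.81 without controls 1 and 3 and at 0.80 without controls 2 and 4, without a call in either fit. MMP16 was at 1.05 and 0.78 in those fits, also without a call. TIMP2 was at 1.134 without controls 1 and 3 and at 0.21 without controls 2 and 4, and TIMP3 at 0.83 and 0.36, again with no call. MMP2, MMP3 and MMP19 were at 1.57, 3.22 and 1.66 without controls 1 and 3 and turned to -0.11, -0.30 and -0.61 without controls 2 and 4, with no call in either fit. These fits were added after the values were seen, and each leaves 2 controls.

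**Figure D2:**
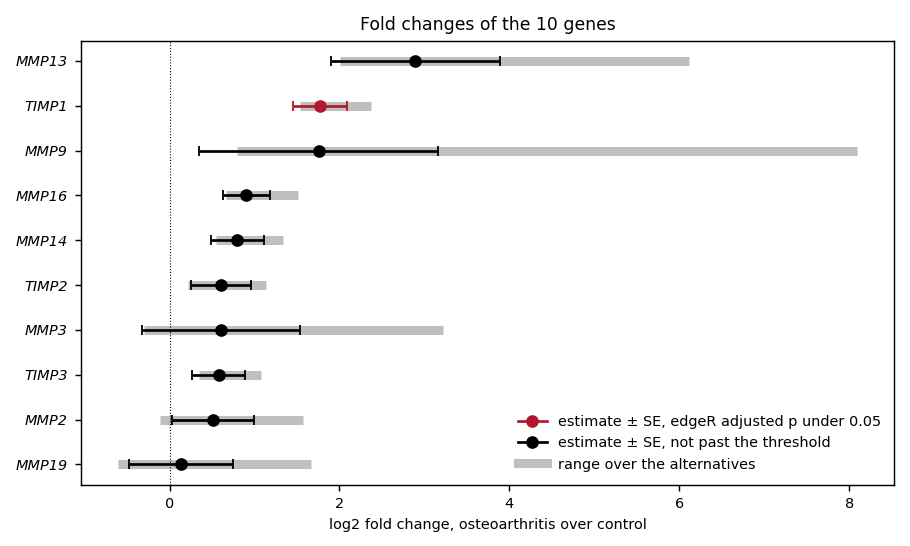
Log2 fold changes of the 10 genes, osteoarthritis over control, as points with ± 1 standard error, ordered by size. Grey bars span the values under all alternatives, from 0.80 to 8.10 for MMP9 and from 1.53 to 2.37 for TIMP1, the gene drawn in red for an edgeR adjusted p under 0.05.

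The summed markers of bone-resorbing and bone-forming cells were low in controls 1 and 3, as were MMP9 and MMP13. Osteoclast markers, 6 of 7 listed genes in the table and 0 of 6 called, summed to 1349, 754, 1383 and 539 CPM in osteoarthritis replicates 1 to 4, and to 10.9, 943, 15.1 and 979 CPM in control replicates 1 to 4. Of these, ACP5, the tartrate-resistant acid phosphatase of osteoclasts, was at 448 to 1247 CPM in osteoarthritis and at 6.96, 768, 11.6 and 821 CPM in controls, and OCSTAMP was at 0 in control replicate 1. Osteoblast and osteocyte markers, 0 of 6 called, summed to 2372 to 3431 CPM in osteoarthritis and to 354, 2019, 379 and 2024 CPM in controls, with MEPE at 0 in control replicate 1. SP7, the osteoblast transcription factor, differed from that sum, at 192 to 393 CPM in osteoarthritis and at 324, 222, 349 and 237 CPM in controls. Macrophage markers, 0 of 8 called, summed to 198 to 662 CPM in osteoarthritis and 29.1, 609, 34.0 and 667 CPM in controls. CD14 differed from that sum, at 3.38 to 3.61 CPM in osteoarthritis and at 2.98, 2.83, 4.49 and 4.22 CPM in controls. In the sums of all 3 lists controls 2 and 4 thus lay within the osteoarthritis range or near it. The part these cells had in the MMP9 and MMP13 values was not tested.

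Hypertrophic chondrocyte markers, 0 of 5 called, summed to 12119, 9408, 3463 and 4446 CPM in osteoarthritis replicates 1 to 4, and to 276, 769, 294 and 2888 CPM in control replicates 1 to 4. Osteoarthritis replicates 1 and 2 were highest for this sum, for the sum of the 7 chondrocyte markers and for TIMP1, whereas MMP13 was highest in replicate 3. Of the chondrocyte markers, MATN3 and CNMD were higher in osteoarthritis replicate 4 (91.5 and 7.10 CPM) than in replicate 2 (80.1 and 5.84 CPM). The sum of smooth muscle and pericyte markers, 0 of 3 tested called, ran the other way, at 58.9 to 78.4 CPM in osteoarthritis and at 192, 119, 192 and 97.5 CPM in controls. Within that list ACTA2, RGS5 and DES overlapped between groups, and MYH11 did not. Fibroblast and synovium markers overlapped between groups, with sums of 88175 to 143761 CPM in osteoarthritis and 109109 to 160524 CPM in controls, most of it from COL1A1. Within that list THY1, COL3A1, DPT and CD248 were higher in controls 1 and 3 than in controls 2 and 4, as MMP2, MMP3 and MMP19 were. COL1A1 ran the other way, at 94854, 129534, 98516 and 158751 CPM in control replicates 1 to 4. PDGFRA and PI16 did not split the controls in this way. THY1 was at 51.0 to 186 CPM in osteoarthritis and at 322, 36.4, 356 and 44.0 CPM in controls. COL3A1, which encodes type III collagen, was at 2705 to 9936 CPM in osteoarthritis and at 13710, 1050, 13747 and 1590 CPM in controls. The part of these cells in the TIMP1, MMP2, MMP3 and MMP19 values was not tested.

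**Figure D3:**
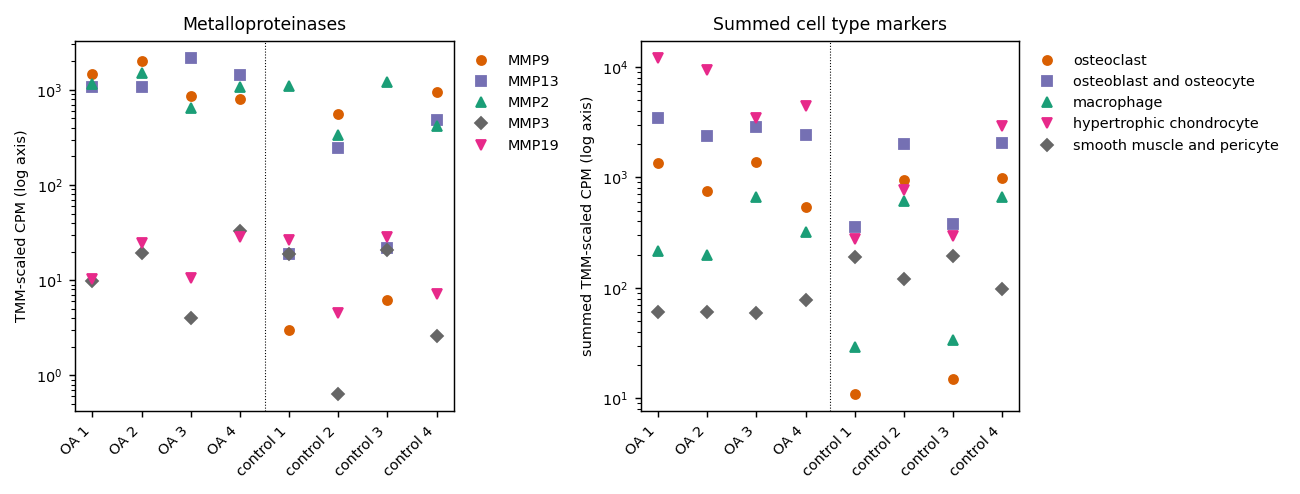
Left, TMM-scaled CPM of 5 MMPs in each library; right, summed TMM-scaled CPM of 5 cell type marker lists in the same libraries, both on log axes with osteoarthritis (OA) libraries left of controls. MMP9 and the osteoclast sum are both lowest in controls 1 and 3, at 2.98 and 6.25 CPM and at 10.9 and 15.1 CPM.

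Levels of different genes were set against each other in TPM, a transcript abundance corrected for gene length, and within libraries only. Short non-coding RNA genes held 31.95 to 40.3% of TPM in osteoarthritis libraries and 53.0 to 63.0% in controls, so TPM values of the groups are not on the same base. In osteoarthritis MMP13 led by mean TPM at 1403 ± 858, followed by TIMP1 at 892 ± 173, MMP2 at 863 ± 161 and MMP9 at 736 ± 165 TPM (SD, n = 4). The ranges of these neighbours overlapped, and TIMP1 was ahead of MMP13 in 2 of 4 libraries. By mean TPM, MMP14, TIMP2 and TIMP3 followed at 477 ± 77.4, 330.4 ± 61.3 and 115 ± 20.01 TPM. The ranges of MMP9 and MMP14 also overlapped, with MMP9 ahead in 4 of 4 libraries. The ranges of MMP14 and TIMP2 lay apart, as did those of TIMP2 and TIMP3. MMP16, MMP19 and MMP3 came last, and each overlapped its neighbours, TIMP3 included. In controls MMP2 led at 200.2 ± 136 TPM, and every pair of neighbours in the order overlapped. MMP9 ranked first of the 10 in controls 2 and 4 and last in controls 1 and 3.

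The make-up of each family differed between libraries. MMP13 held 28.1, 22.4, 57.4 and 40.2% of the summed TPM of the 7 MMPs in osteoarthritis replicates 1 to 4, and 1.35, 19.8, 1.41 and 25.3% in control replicates 1 to 4. MMP2 held 15.02 to 29.0% in osteoarthritis and 71.3, 25.2, 71.1 and 20.4% in controls. Controls 1 and 3 were thus dominated by MMP2, whereas controls 2 and 4 and the osteoarthritis libraries shared out the total among MMP2, MMP9, MMP13 and MMP14. TIMP1 held 63.7 to 70.4% of the summed TPM of the 3 TIMPs in osteoarthritis and 33.5, 60.7, 36.0 and 51.3% in controls, without overlap.

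**Figure D4:**
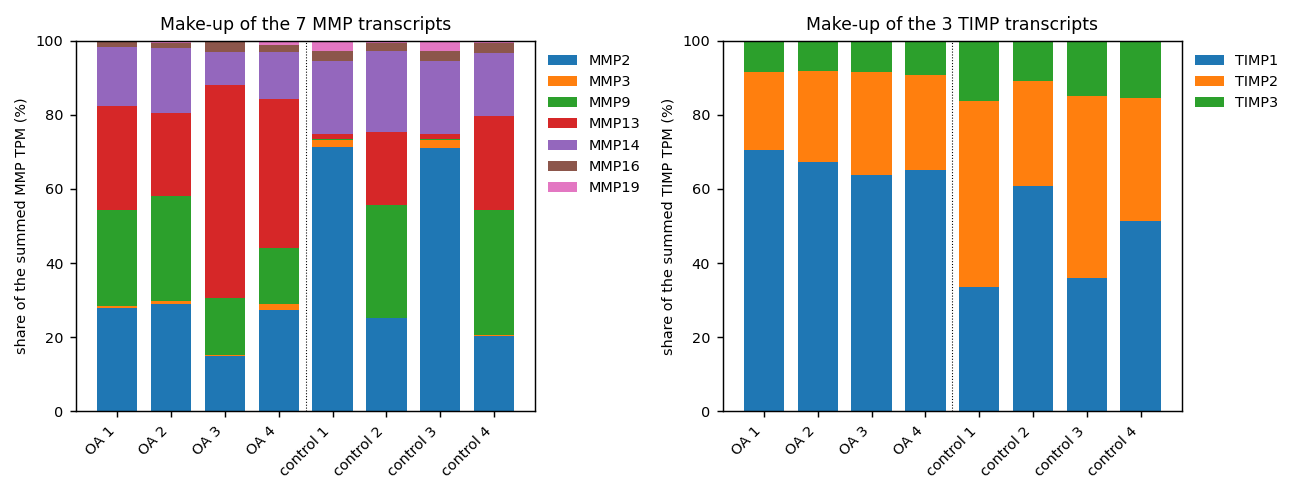
Shares of the summed TPM of the 7 MMPs (left) and the 3 TIMPs (right) in each library, in percent, with osteoarthritis (OA) libraries left of controls. TIMP1 takes 63.7 to 70.4% of TIMP transcripts in osteoarthritis and 33.5 to 60.7% in controls, and MMP2 takes over 71% of MMP transcripts in controls 1 and 3.

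The balance of proteases to inhibitors did not separate the groups as a whole. The summed TPM of the 7 MMPs was 2.24, 2.04, 4.19 and 2.698 times that of the 3 TIMPs in osteoarthritis replicates 1 to 4, and 2.27, 2.20, 2.28 and 3.21 times in control replicates 1 to 4. The means were 2.79 ± 0.97 in osteoarthritis and 2.49 ± 0.48 in controls (SD, n = 4 each), a difference below either SD. Subsets of the proteases, chosen after their values were seen and not tested, differed in direction. MMP9 and MMP13 together were 1.21, 1.04, 3.05 and 1.49 times the 3 TIMPs in osteoarthritis and 0.0338, 1.11, 0.0384 and 1.90 times in controls. MMP2 and MMP14 together were 0.981, 0.946, 1.01 and 1.09 times the 3 TIMPs in osteoarthritis and 2.06, 1.04, 2.07 and 1.202 times in controls. In both subsets controls 2 and 4 were near the osteoarthritis values and controls 1 and 3 were not. A ratio within a library does not depend on how libraries are scaled. Of 24 single ratios, 21 of a protease to an inhibitor and 3 between inhibitors, 0 passed after adjustment over the 24 by an exact two-sided permutation test. The test has 70 assignments and a smallest p of 0.0286, which 4 of the ratios reached, each with an adjusted p of 0.17. At that family size the adjusted p could pass only if many ratios reached the smallest value together.

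The 4 ratios without overlap were MMP13 to TIMP3, MMP14 to TIMP1, TIMP1 to TIMP2 and TIMP1 to TIMP3. MMP13 to TIMP3 was 7.53, 5.56, 28.2 and 11.7 in osteoarthritis replicates 1 to 4, and 0.187, 4.05, 0.215 and 5.22 in control replicates 1 to 4. The mean log2 ratio was 3.498 higher in osteoarthritis, and 1.24 higher without controls 1 and 3. MMP13 to TIMP2 was 2.96, 1.86, 8.67 and 4.21 in osteoarthritis and 0.0610, 1.53, 0.0653 and 2.45 in controls, with overlap. Its log2 difference was 3.43 (exact permutation p = 0.057), and 0.96 without controls 1 and 3. MMP14 to TIMP1 ran the other way, at 0.503, 0.528, 0.592 and 0.530 in osteoarthritis and at 1.34, 0.796, 1.25 and 1.07 in controls, a log2 difference of -1.02. Every osteoarthritis library thus held more TIMP1 than MMP14 transcripts, and 3 of 4 controls held fewer. This log2 difference stayed between -1.27 and -0.78 under all alternatives run.

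TIMP1 was also higher relative to each other inhibitor in every osteoarthritis library than in any control. TIMP1 to TIMP2 was 3.32, 2.74, 2.30 and 2.53 in osteoarthritis replicates 1 to 4, and 0.668, 2.13, 0.732 and 1.55 in control replicates 1 to 4. TIMP1 to TIMP3 was 7.05 to 8.43 in osteoarthritis and 2.05 to 5.64 in controls. Their log2 differences were 1.259 and 1.33, and 0.57 and 0.85 without controls 1 and 3. TIMP2 to TIMP3, in contrast, overlapped between groups at 2.54 to 3.25 in osteoarthritis and 2.13 to 3.30 in controls (log2 difference 0.068, exact permutation p = 0.71).

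Ratios of the collagenase and the gelatinases to TIMP1 overlapped between groups. MMP13 to TIMP1 was 0.893, 0.678, 3.78 and 1.67 in osteoarthritis replicates and 0.0912, 0.718, 0.0892 and 1.58 in controls (log2 difference 2.17, exact permutation p = 0.17). That difference was 0.39 without controls 1 and 3 and 3.95 without controls 2 and 4. MMP9 to TIMP1 was 0.629 to 1.01 in osteoarthritis and 0.00970, 1.103, 0.0175 and 2.11 in controls, so controls 2 and 4 exceeded every osteoarthritis library. Its log2 difference was 2.54 (exact permutation p = 0.43) and turned to -0.89 without controls 1 and 3. MMP2 to TIMP1 ran the other way, at 0.890, 0.879, 0.987 and 1.14 in osteoarthritis replicates and 4.83, 0.914, 4.51 and 1.28 in controls. Its log2 difference was -1.21 (exact permutation p = 0.086), and -0.16 without controls 1 and 3. For the trio that activates MMP2, MMP14 to TIMP2 was 1.34 to 1.67 in osteoarthritis and 0.895, 1.69, 0.914 and 1.65 in controls (log2 difference 0.24, exact permutation p = 0.40). MMP2 to TIMP2 was 2.27 to 2.95 in osteoarthritis and 1.94 to 3.31 in controls (log2 difference 0.046, exact permutation p = 0.80).

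**Figure D5:**
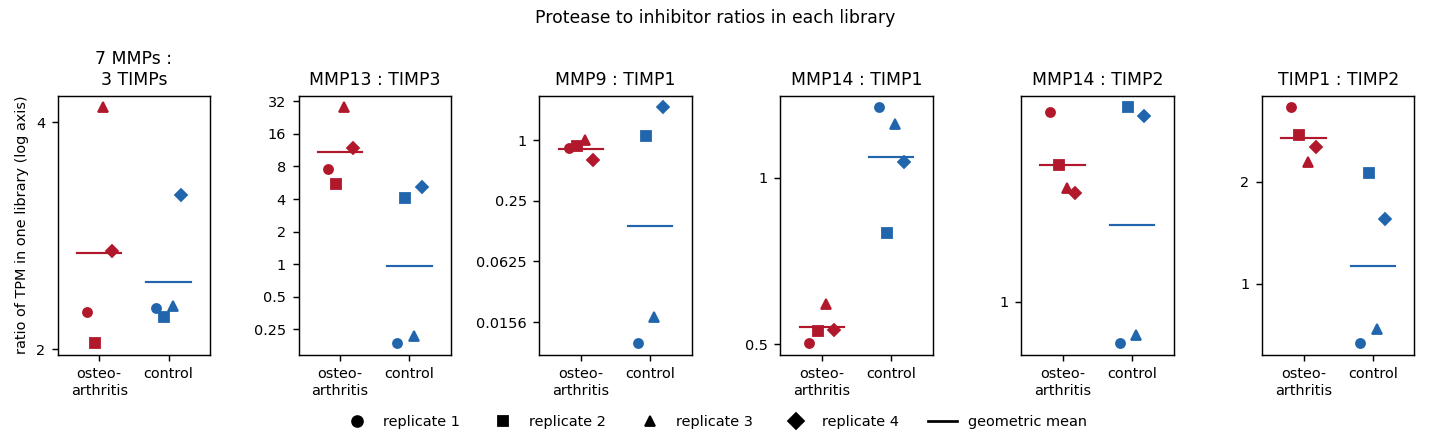
TPM ratios within each library for the summed families and 5 single pairs, on log axes with a range of its own in each panel; symbols are replicates and lines geometric means, osteoarthritis left of control. MMP14 to TIMP1 is 0.503 to 0.592 in osteoarthritis and 0.796 to 1.34 in controls, while the summed ratio of 2.04 to 4.19 in osteoarthritis overlaps 2.20 to 3.21 in controls.

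Further genes of the system were taken from 3 lists. Of 18 further MMPs and inhibitors listed, 11 were in the table and 9 were tested, with 0 called in either direction by edgeR, 4 of 9 above 0 and a median log2 fold change of -0.032. RECK, a membrane-anchored MMP inhibitor, alone had an unadjusted p under 0.05, at 13.2 ± 2.78 CPM in osteoarthritis and 8.44 ± 2.66 CPM in controls (SD, n = 4 each; 0.63 ± 0.26, edgeR adjusted p = 0.30). MMP28 was at -0.34 ± 0.27 and MMP23B at -0.80 ± 0.73. DESeq2 and limma-voom also called 0 of these 9, and limma-voom with sample weights called 4. Of all genes these tools called 5.22%, 0.743% and 20.8%.

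Among 20 listed activators, regulators and clearance factors, 16 were in the table, 15 were tested and 0 were called, with 13 of 15 above 0 and a median of 0.49. At an unadjusted p under 0.05 edgeR had 4, all higher, where 7.52% of all genes were higher at that level. DESeq2 called 1, limma-voom 1 and the weighted fit of limma-voom 6, where they called 5.22%, 0.743% and 20.8% of all genes. PCSK6, a proprotein convertase that cleaves precursors, came closest, at 406, 272, 159.9 and 188 CPM in osteoarthritis replicates 1 to 4, and at 57.2, 52.1, 62.4 and 106 CPM in control replicates 1 to 4. The PCSK6 groups did not overlap (1.88 ± 0.36, edgeR adjusted p = 0.063), and among 8 fits that each omit 1 library only that without control replicate 4 called the gene (2.15, edgeR adjusted p = 0.043, against up to 0.18 in the others). SERPINE2, an inhibitor of plasminogen activators, was at 1.16 ± 0.44, and TSPAN14, a tetraspanin that carries ADAM10, was at 0.73 ± 0.31, and both overlapped between groups. Without controls 1 and 3 they were at 0.58 and 0.34, not called, and without controls 2 and 4 at 2.23 and 1.32 and called, as was PCSK6 at 2.07 (edgeR adjusted p = 0.0061, 0.022 and 0.030).

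Of 15 matrix substrates, all tested, 0 were called higher by edgeR, with 10 above 0 and a median of 0.80. At an unadjusted p under 0.05 edgeR had 5 higher, where 7.52% of all genes were higher. In either direction DESeq2 called 6 of the 15, where it called 5.22% of all genes. Limma-voom called 1, where it called 0.743% of all genes, and 4 once samples were weighted, where it called 20.8%. Of 5 epithelial markers 4 were in the table, and 3 of 4 were called lower, where 0.393% of all genes were. They summed to 1.23 to 2.07 CPM in osteoarthritis and 85.0 to 352 CPM in controls. KRT5 and KRT14 made up most of the control sums. CDH1, the marker not called, overlapped between groups (edgeR adjusted p = 0.47) and made up most of the sum in osteoarthritis replicate 3. ESRP1, which was called, was at 0 in osteoarthritis replicates 1, 2 and 4. The part of epithelial cells in the values of the 10 genes was not tested.

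The genes with a symbol and a mean log2 CPM of at least 2 whose log2 CPM tracked a member most closely over the 8 libraries were found by Pearson r among 8658 candidates. For MMP9 they were LGR6, SEMA7A and KLHL13 (r = 0.995, 0.994 and 0.993), all lowest in controls 1 and 3. LGR6, for instance, was at 20.2 to 46.6 CPM in osteoarthritis and at 0.153, 22.8, 0.176 and 25.1 CPM in controls. For MMP13 they were COLEC12, ODC1 and SERPINF1 (r = 0.993, 0.985 and 0.984), again lowest in those controls. For TIMP1 they were FZD7, a Wnt receptor, SLC26A2, a sulphate transporter of chondrocytes, and IHH, the hedgehog ligand of prehypertrophic chondrocytes (r = 0.984, 0.977 and 0.976). With each library taken relative to its group mean, r was 0.957 to 0.992 for the MMP9 and MMP13 genes and 0.919 to 0.933 for the TIMP1 genes. These values describe 8 libraries that share their groups, 2 of them alike, and carry no test.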

How the data were processed

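Estimated counts, TPM, log2 TPM and effective gene lengths were taken from the authors' deposited table. The submitters' processing notes name Salmon 1.1.0 and DESeq2 1.26.0, then StringTie 2.1.0 and STAR 2.7.9a, and also MultiQC 1.13 and Trim Galore 0.6.7, on Sscrofa11.1, with no role stated. The deposited estimated counts were whole numbers, and were rounded as a safeguard. The deposited TPM equalled counts over effective lengths, rescaled (largest relative difference 2.5e-14). The 8 deposited log2 TPM columns were not used. Gene positions came from RefSeq on the same build.

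After filterByExpr and TMM scaling, genes were tested with edgeR 4.0.16 (robust quasi-likelihood, group as the sole term) in R 4.3.3, with Benjamini-Hochberg adjustment over 16020 genes. The standard error is the fold change over the square root of F. Log2 TPM ratios were compared by exact permutation. DESeq2 1.42.0 and limma 3.58.1 were alternatives, with other scalings, filters and left-out libraries. The members, lists and tests were chosen with earlier results of these data known. Genes outside the 10 were named by rule: those past the threshold, otherwise the 3 smallest p per list. CTSK was not analysed here, nor were other listed genes absent from the table. A result on 1 listed substrate is not reported here.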

Additional observations from a re-analysis of the deposited data

Results flagged for a closer look

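The summed MMP to TIMP ratio of control replicate 4, 3.21, stood far from the other controls, the nearest being at 2.28, with a gap of 0.92 of the range of the group, above the critical value of the Dixon test. It was the only value so marked among 26 groups of 4 values examined, where chance marks about 1 in 20. In TPM, which depends on the make-up of each library, MMP9 and MMP13 were also far higher in control replicate 4. They were at 255.5 and 191 TPM there, and at up to 34.4 and 22.4 TPM in the other controls.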

How the results depend on the processing

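The count of called genes among the 10, 1 in the main analysis, was 0 without a filter on low counts, 0 with controls 1 and 3 summed, 0 with controls 1 and 3 left out, 3 with controls 2 and 4 left out, 2 by DESeq2 and 5 by limma-voom with sample weights. It was 0 to 1 with a library left out in turn. With the replicate number as a block it was 0. TIMP1 was at 1.71 in that fit (edgeR adjusted p = 0.27). The labels do not say whether equal numbers pair the libraries. The deviations of same-numbered libraries from their group means correlated at -0.018, -0.083, -0.34 and -0.18. Such correlations cannot exclude pairing, since the split among the controls also enters them. Over the 22 alternatives TIMP1 ranged from 1.53 to 2.37 (adjusted p from 9.5e-06 to 0.27). MMP19 turned to -0.38 with sample weights. With a library left out MMP3 ranged from -0.012 to 1.102 and MMP19 from -0.19 to 0.51, and without controls 2 and 4 MMP2, MMP3 and MMP19 were at -0.11, -0.30 and -0.61. The other 7 genes kept their direction in every alternative. MMP28 was at 0.24 with library size alone and, without controls 1 and 3, at 0.013, and MMP23B was at 1.38 without those controls.

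All genes called numbered 99 in the main analysis, 214 with library size alone, 285 at an adjusted p under 0.10, 836 by DESeq2, 3329 with sample weights, 1 with the block, 31 with controls 1 and 3 summed, 1241 without controls 2 and 4, and 14 to 152 with a library left out. Of the 24 ratios 0 passed under every alternative; with a library left out, with controls left out or with equal numbers as blocks, the smallest p of the test (0.0571, 0.133 and 0.125) cannot pass. Without controls 1 and 3 MMP9 to TIMP1 was at -0.89 and MMP14 to TIMP2 at -0.21, and without controls 2 and 4 MMP2 to TIMP2 was at -0.32 and TIMP2 to TIMP3 at -0.14. With a library left out the last 2 ranged from -0.081 to 0.17 and from -0.055 to 0.16. Of 13 ratios not given singly, 10 changed sign under some alternative. Low counts limit the precision of MMP3 in control 2, at 4 counts, and less so of MMP9 in controls 1 and 3, at 39 and 71. Total counts of controls 1 and 3, 13214075 and 13028760, were above that of osteoarthritis replicate 2, 11354200, which held 23934 MMP9 counts. Scaled by the TMM factors, library sizes were 13083967 and 11367255 in controls 1 and 3, and 11817524 in osteoarthritis replicate 2. The part of depth in the MMP9 values was not tested.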

Other observations

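MMP8, the neutrophil collagenase, was too low to be tested and was found mainly in a single library of each group. It had 2, 0, 118 and 3 counts in osteoarthritis replicates 1 to 4, and 0, 0, 0 and 11 counts in control replicates 1 to 4. Neutrophil markers summed to 51.1 CPM in osteoarthritis replicate 3 and 61.4 CPM in control replicate 4, and to between 2.27 and 4.19 CPM in the other 6 libraries. Erythroid markers were highest in the same libraries, at 223 CPM in osteoarthritis replicate 3 and 1034 CPM in control replicate 4. MMP20, the enamel protease, had 0, 0, 16 and 13 counts in osteoarthritis replicates and 0, 3, 0 and 12 counts in controls. MMP9 was at 863 CPM in osteoarthritis replicate 3, the third highest of that group, and at 958 CPM in control replicate 4, the highest control. The genes of this paragraph were chosen after their values were seen.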
